A study of Zea mays with 20 samples.

Results

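RIL71 and RIL39 are maize recombinant inbred lines from the cross F288 x F271, and the labels place both in the class with the unfavorable allele at a quantitative trait locus (QTL) in bin 6.06. They were compared with each other across all measured transcripts, to show how far sister lines of 1 class differ. The comparison rests on 8 of the 20 arrays of the study: 4 arrays of RIL71 and 4 of RIL39, chosen by line from the labels. Each line had 2 arrays at emerging tassel and 2 at early silking, and stage was kept as a factor. In what follows an array is named by its stage and number, for example tassel 1 or silking 2.

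All 20 arrays measured amplified, biotin-labelled total RNA from the ear internode of untreated plants in an irrigated field during a dry, hot summer. The other 12 arrays came from RIL99 and RIL54, described as favorable at all 4 main QTL, and from RIL118, unfavorable at a QTL in bin 9.02. The QTL bear on lignin content and on how well the cell wall is degraded. Each line is a single inbred genotype, so a difference between RIL71 and RIL39 is a difference between a pair of genotypes and not an effect of any 1 locus. The labels do not say whether the 2 arrays of a line and stage came from separate plants or extractions, and the p-values measure only the spread between these samples, which may be technical.

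A recombinant inbred line is made by repeated selfing from a cross, so that each line is nearly homozygous for its own mosaic of segments from both parents. Sister lines that share an allele at a mapped locus therefore still differ at many others. The ear internode is the stem segment at the node that bears the ear. Its cells first elongate, with walls loosened by expansins, and then lay down a secondary wall of cellulose, xylan and lignin, which is built from monolignols made by the phenylpropanoid pathway.

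The values are deposited log2 expression values per probe set, so a difference of 1 is a 2-fold difference. A probe set reads how much labelled RNA hybridizes to its probes. A lower transcript level and a transcript that its probes match less well therefore cannot be told apart, and in a bulk internode fewer cells of a type and less RNA per cell cannot be told apart either. Genes that mark a stem forming secondary walls were bright: the sum over the 4 cellulose and secondary-wall markers was 13.0 to 15.2 on the log2 scale in RIL71 and 13.3 to 14.8 in RIL39, and none of the 4 was called between the lines. Of 8 kernel storage markers, 7 averaged below 4. Of 12 leaf photosynthesis markers all passed the filter on low values and 1, pep1, was called. Their log2 sums were 15.8 to 16.8 in RIL71 and 16.6 to 16.8 in RIL39. Of 4 meristem markers tested, 1 (lg3) was called, and of 3 epidermis markers tested, 1 (fae1) was called. The part of other tissues in the differences below was not tested.

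Arrays of the same line and stage correlated at 0.994 (RIL39 at tassel), 0.982 (RIL39 at silking), 0.956 (RIL71 at tassel) and 0.975 (RIL71 at silking). The 5′ minus 3′ signal of 4 control transcripts, which falls when RNA or its copies are shorter, averaged -4.10 ± 0.68 (SD, n = 4) in RIL71 and -5.66 ± 1.23 (SD, n = 4) in RIL39. That difference of 1.56 had a two-sided exact permutation p of 0.167 within stages, where 0.0556 was the smallest p the design allows. RIL39 tassel 2, at -6.47, and RIL39 silking 2, at -6.88, were the lowest of all 20 arrays. Counts are therefore also given without these 2 arrays, called the 2 low-5′ RIL39 arrays below, an alternative that leaves 1 array of RIL39 at each stage.

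The lines differed at many genes and in both directions. Of 11033 probe sets that passed the filter on low values, 1834 (16.6%) were called over both stages, which means a Benjamini-Hochberg adjusted p under 0.05 in the limma fit. RIL71 was higher for 893 (8.09%) and lower for 941 (8.53%). A difference of at least 2-fold was called for 840 (7.61%), 404 of them higher in RIL71 and 436 lower, and 158 differed at least 8-fold. The median difference of all tested probe sets was 0.00 on the log2 scale, and the median size of a called difference was 0.92. Without the 2 low-5′ RIL39 arrays, 682 probe sets were called. Leaving out RIL39 tassel 2 alone gave 1030 calls and RIL39 silking 2 alone gave 1139, while the 5′ minus 3′ signal as a covariate, an alternative added after the data were seen, gave 1048. Of the calls of named genes and interactions given below, 33 were lost without both arrays, with 1 array of RIL39 left a stage. The differences of these 33 kept 63.7% to 122% of their size, with a median of 98.4%. They include cesa6, PER42, expA3, NNR1, bx6, pip2-5, pep1, RPS10 and sdg110 (adjusted p 0.0594 to 0.264), and the others are given with their genes. The part of RNA length in the differences was not otherwise tested.

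Set among all pairs of the 5 lines, RIL71 and RIL39 had fewer calls than 6 of the other 9. The pairs ran from 1013 calls for RIL71 and RIL54 to 2721 for RIL118 and RIL39. RIL71 and RIL99 gave 1549 calls, RIL39 and RIL54 gave 2617, and RIL39 and RIL99 gave 2500. These counts share lines and are set side by side without a test between them.

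The platform annotation lists 1 gene for 960 of the tested probe sets, which stand for 808 genes. Of these 960, 154 (16.04%) were called, against 16.6% of all tested probe sets, 80 of them higher in RIL71 and 74 lower. Counted by gene, 144 of the 808 (17.8%) had a called probe set, and the shares of the gene lists below are to be read against this one. All named genes below come from this annotated subset, and the other called probe sets have no name here. Over all tested probe sets, the share called fell from 23.8% at a mean log2 level below 6 to 9.13% above 12. The shares of the gene lists are not adjusted for level. The chromosome of a gene is that of the maize assembly Zm-B73-REFERENCE-NAM-5.0 in RefSeq, and the place of the probes within each gene is not given in the sources used here.

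Lignin and secondary-wall cellulose belong to the wall traits that the QTL bear on. Of the 5 monolignol and phenylpropanoid enzymes measured, 1 was called, against 17.8% of all named genes, and the median difference of the 5 was 0.23. The called gene was 4CL on chromosome 5, a 4-coumarate-CoA ligase that activates hydroxycinnamic acids. Its log2 values were 13.26, 13.48, 12.22 and 12.30 in RIL71 (tassel 1, tassel 2, silking 1, silking 2) and 12.85, 12.54, 11.40 and 10.57 in RIL39. RIL71 was the higher line at each stage without overlap, by 0.97 (SE 0.28, adjusted p = 0.0339). This call was among the least stable. It was lost without any single array other than RIL39 silking 1 (adjusted p 0.0600 to 0.147), and adjusted p was 0.341 when both low-5′ arrays of RIL39 were dropped, or 0.211 with that signal as a covariate.

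The other 4 lignin genes did not pass the test. For pal3, a phenylalanine ammonia-lyase at the entry of the pathway, all 8 arrays lay between 13.64 and 13.86, and the difference was -0.01 (SE 0.11, adjusted p = 0.968). BM1 on chromosome 5, the cinnamyl alcohol dehydrogenase gene of the brown midrib1 mutant, differed by 0.16 (SE 0.10, adjusted p = 0.282). Both cinnamoyl-CoA reductase genes, which make monolignol aldehydes, missed the threshold too: cncr1 differed by 0.23 (SE 0.15, adjusted p = 0.32) and the dim ccr2 by 0.43 (SE 0.74, adjusted p = 0.718).

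Secondary-wall cellulose had 0 calls in limma among its 4 measured genes, and 0 with an unadjusted p under 0.05, and their median difference was 0.19. The cellulose synthase genes cesa10, cesa11 and CesA12 differed by 0.25 (SE 0.33), 0.51 (SE 0.35) and 0.13 (SE 0.35). The COBRA-like gene bk2, named for the brittle stalk2 mutant, differed by -0.27 (SE 0.38). In both lines these genes read lower at silking than at tassel: CesA12 had 13.73 and 13.37 at tassel against 12.68 and 11.82 at silking in RIL71, and 13.37 and 13.23 against 12.20 and 12.29 in RIL39. The lines overlapped for CesA12 at silking.

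Of 6 listed MYB and anthocyanin regulators, 2 passed the filter on low values. Both of these MYB genes were called, in opposite directions, against 17.8% of all named genes. They are known in maize as repressors of lignin genes. For myb42 on chromosome 4 the log2 values were 7.25, 7.51, 9.07 and 8.66 in RIL71 and 6.51, 6.72, 7.37 and 7.50 in RIL39, a difference of 1.09 (SE 0.25, adjusted p = 0.00923). The myb31 values on chromosome 2 were 5.74, 5.13, 5.63 and 4.77 in RIL71 and 6.39, 6.30, 5.99 and 6.92 in RIL39, a difference of -1.08 (SE 0.28, adjusted p = 0.0189). Neither gene overlapped between lines at either stage, which held for 28.9% of all tested probe sets. Both calls were lost without the 2 low-5′ RIL39 arrays (adjusted p 0.0681 for myb42 and 0.182 for myb31), with differences of 1.18 and -0.87 there. The myb31 call was also lost in the fit of the 8 arrays alone (adjusted p 0.0574) and without RIL71 tassel 2, RIL71 silking 2, RIL39 tassel 1, RIL39 tassel 2 or RIL39 silking 2 (adjusted p 0.0567 to 0.0892).

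Of the primary-wall cellulose and hemicellulose genes, 1 of 10 was called: the cellulose synthase gene cesa6 was higher in RIL71 by 0.58 (SE 0.17, adjusted p = 0.0344). That call was lost without any single array other than RIL71 tassel 1 or RIL39 silking 1. It was also lost with quantile normalization (adjusted p 0.0688), with RNA amount as a covariate (0.0694) and with the 5′ minus 3′ signal as a covariate (0.13). Of 4 peroxidase and laccase genes tested, 1 was called. PER42 on chromosome 7, a peroxidase, read 9.40 and 8.91 in RIL71 and 11.47 and 11.54 in RIL39 at tassel. At silking the lines overlapped, with 8.88 and 9.22 against 9.18 and 8.62. Its difference over both stages was -1.09 (SE 0.29, adjusted p = 0.0224), lost without RIL71 tassel 2, RIL71 silking 1, RIL39 tassel 1, RIL39 tassel 2 or RIL39 silking 1 (adjusted p 0.0574 to 0.0745).

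**Figure D1:**
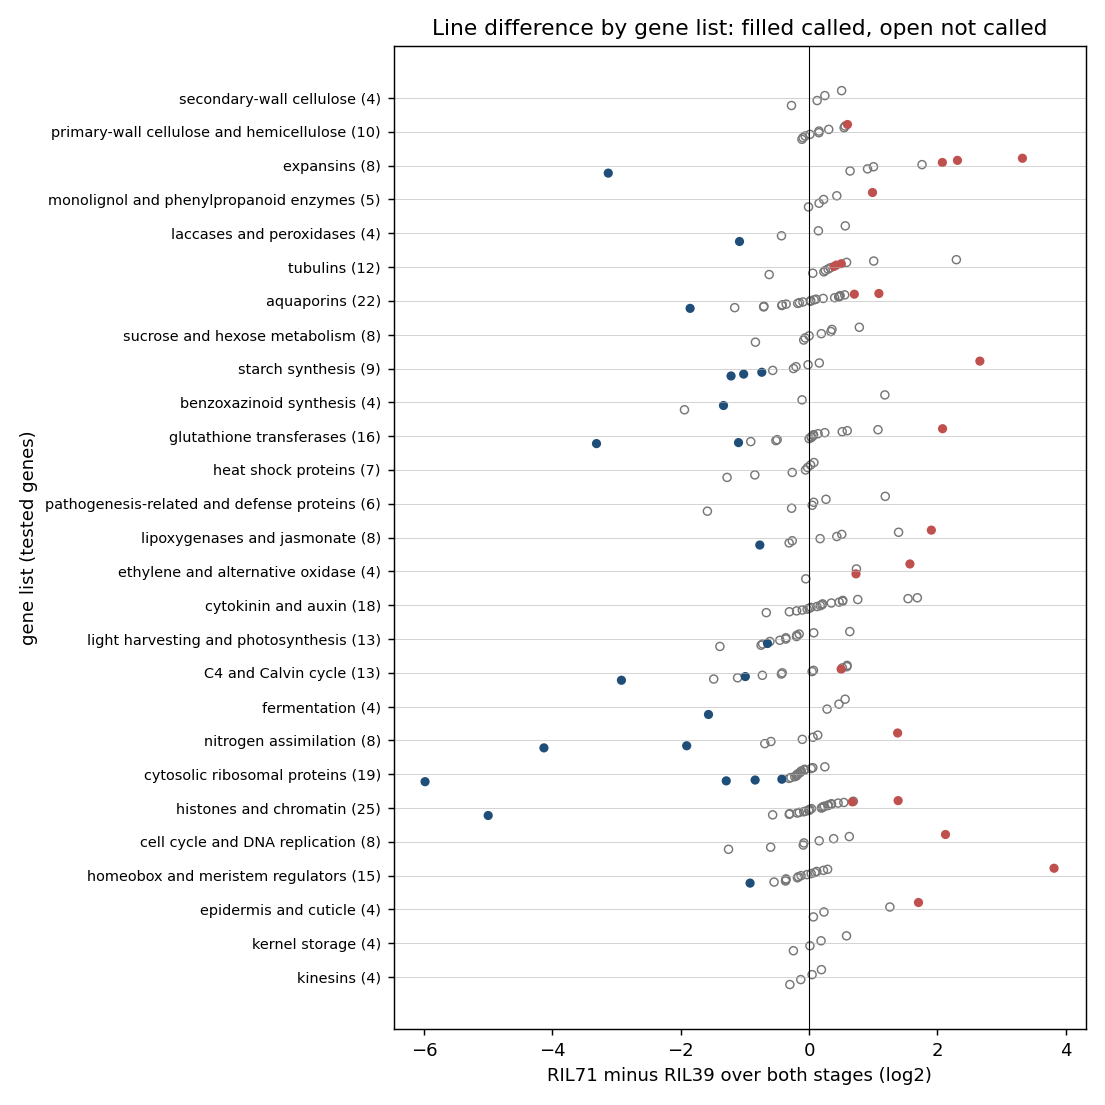
Difference between RIL71 and RIL39 over both stages (x axis, log2) for each tested gene of the lists with at least 4 tested genes (y axis, number of genes in brackets). Filled points were called (red higher in RIL71, blue lower) and open points were not. The secondary-wall cellulose genes, none called, lie between -0.27 and 0.51, while expansins reach from -3.13 to 3.33.

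Expansins, which loosen the wall during elongation, had members that differed in both directions. Of 12 listed, 8 passed the filter on low values and 4 of these were called, against 17.8% of all named genes, 3 higher in RIL71 and 1 lower, with a median difference of 1.38 over the 8. The beta-expansin gene expB7 on chromosome 1 read 10.24, 11.77, 11.53 and 11.92 in RIL71 and 9.53, 9.36, 6.76 and 6.50 in RIL39. RIL39 was thus lowest at silking, and the lines did not overlap at either stage. The difference over both stages was 3.33 (SE 0.38, adjusted p = 6.13e-05), with 1.56 at tassel (adjusted p = 0.086) and 5.09 at silking (adjusted p = 4.95e-05). The interaction of line and stage just missed the threshold for it (adjusted p = 0.0543).

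The other expansins that were higher in RIL71 had their largest difference at tassel. For expB4 on chromosome 7 the values were 10.19, 10.07, 6.52 and 5.38 in RIL71 and 6.88, 6.90, 4.77 and 4.34 in RIL39, a difference of 2.31 (SE 0.50, adjusted p = 0.00705). The alpha-expansin gene expA3 on chromosome 10 read 7.40 and 6.23 in RIL71 and 2.57 and 3.05 in RIL39 at tassel, and lay between 2.03 and 2.32 in all 4 silking arrays. Its difference was 4.01 at tassel (adjusted p = 0.0116) and 0.15 at silking (adjusted p = 0.956), with 2.08 over both (SE 0.63, adjusted p = 0.0398). In the opposite direction, EXPA5 on chromosome 6 read 4.70, 4.58, 4.72 and 2.78 in RIL71 and 7.07, 7.56, 7.45 and 7.22 in RIL39. RIL71 was lower in every array, by 3.13 on average (log2 difference -3.13, SE 0.56, adjusted p = 0.00218), and RIL99, RIL54 and RIL118 averaged 6.60, 8.24 and 6.56.

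The calls of expB7 and EXPA5 held under every alternative tried. The expB4 call was lost without the 2 low-5′ RIL39 arrays (adjusted p 0.0876). The expA3 call over both stages was lost without any single array except RIL71 tassel 2 (adjusted p 0.0736 to 0.117). It was also lost with values below 4 set to 4 (adjusted p 0.0835) and with no filter (adjusted p 0.0774). Without RIL118 adjusted p was 0.0595, and with a replicate block 0.0535.

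Microtubules, built of tubulins, guide where cellulose is laid down. Of 12 tubulin genes measured 3 were called, all higher in RIL71, and the median of the 12 was 0.36, with a range from -0.62 to 2.30. The alpha-tubulins tua5 and tua6 were higher by 0.50 (SE 0.13, adjusted p = 0.0163) and 0.43 (SE 0.12, adjusted p = 0.0245), and the beta-tubulin tub7 by 0.39 (SE 0.12, adjusted p = 0.0433). All 3 calls were lost without the 2 low-5′ RIL39 arrays (adjusted p 0.12, 0.164 and 0.3). Several single arrays also carried them: tua5 was lost without RIL71 tassel 2, RIL71 silking 1, RIL39 tassel 1 or RIL39 tassel 2 (adjusted p 0.0508 to 0.0567). The tua6 call was lost without any of the 8 arrays except RIL71 tassel 1 and RIL71 silking 2. That of tub7 was lost without any except RIL71 tassel 1. In the fit of the 8 arrays alone the calls of tua6 and tub7 were lost as well (adjusted p 0.0652 and 0.0546).

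A small group of transcripts was near the floor of the array in one line and bright in the other. Counting as on a probe set with all 4 arrays of a line above 6, and as off one with all 4 below 4, 60 of 17555 maize probe sets (0.342%) were on in one of the lines and off in the other. Of them 27 were on in RIL71 and 33 in RIL39. All 60 were called, which is no added support, since the rule itself sets the arrays of the lines apart. Those on in a single line passed the filter on low values only through that line. The 60 differences had a median size of 5.85, with a range from 3.93 to 8.99. These sizes depend on the floor of each probe set: with values below 4 set to 4 the median was 4.30 and the range 2.56 to 7.61. Without the 2 low-5′ RIL39 arrays, 67 met the rule.

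The other lines fell into the same classes for most of these probe sets. In 40 of the 60, RIL99, RIL54 and RIL118 were each either on or off, with none in between. RIL118 was in between in 16, and in 7 without its tassel 2 array, which correlated at 0.934 with tassel 1 of the same line and at up to 0.939 with an array of another group. Without that array, an alternative chosen after the data were seen, the 40 became 47, and the counts of probe sets on in RIL71 alone and on in RIL39 alone given next became 7 and 5. A single line stood apart in 21: 6 were on in RIL71 alone of the 5 lines, 4 on in RIL39 alone, 9 off in RIL71 alone and 2 off in RIL39 alone. Of the 33 that were on in RIL39, RIL99 had 18 on, RIL54 15 and RIL118 19. Of the 27 that were on in RIL71, RIL99 had 11 on, RIL54 12 and RIL118 4.

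**Figure D2:**
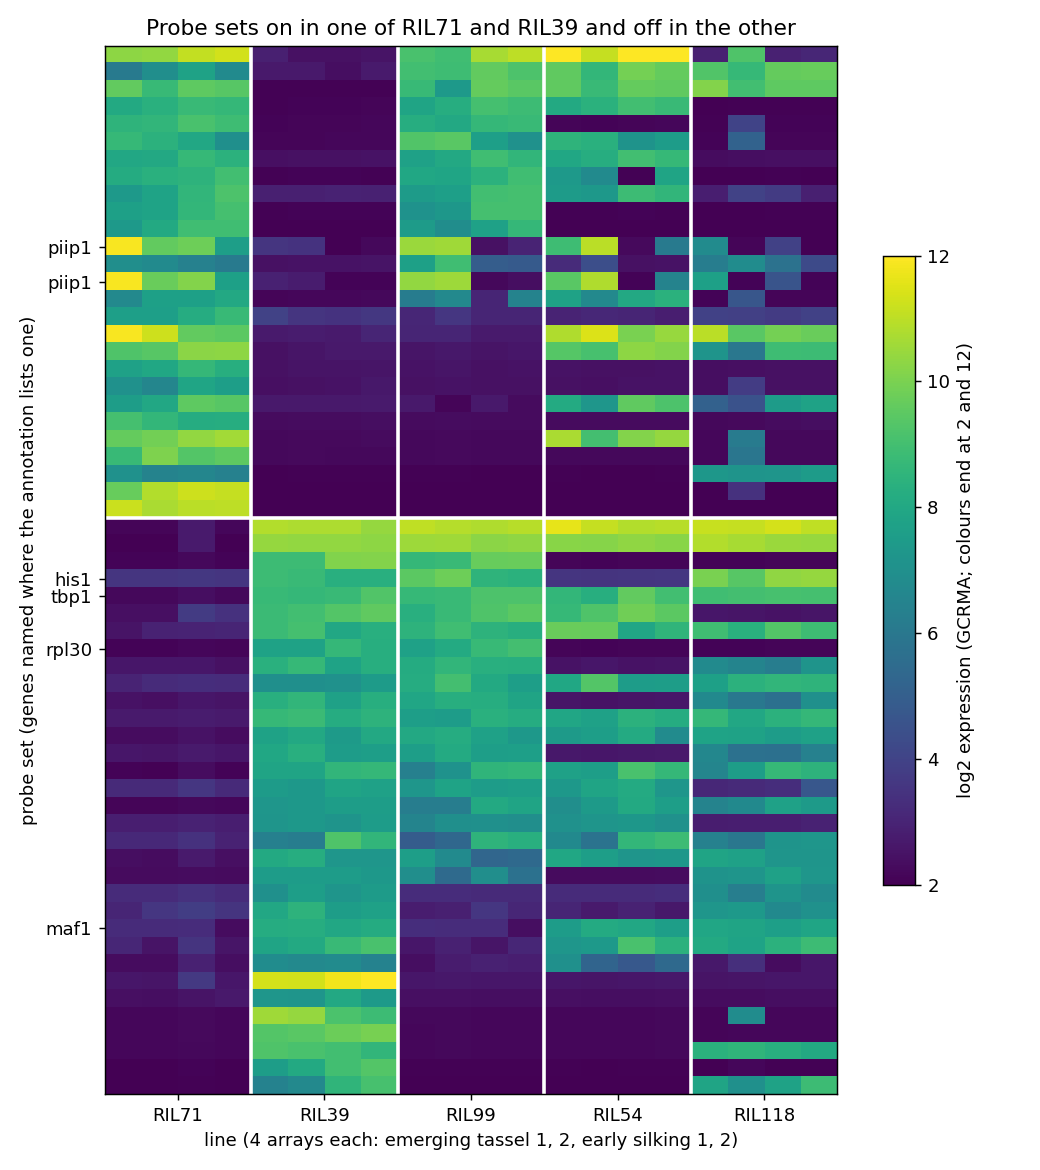
Log2 expression (colour) of the 60 probe sets (rows) that were on in RIL71 and off in RIL39 (upper block) or the reverse (lower block), in the 20 arrays (columns, 4 a line). Rows switch between dark and bright from line to line, and 6 rows carry a gene name: piip1 in 2 rows of the upper block, and his1, tbp1, rpl30 and maf1 in the lower block.

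Annotation lists a gene for 6 of the 60, and they stand for 5 genes. The first is tbp1 on chromosome 1, which encodes a TATA-binding protein, a general factor of transcription initiation. It read 2.21, 2.21, 2.37 and 2.23 in RIL71 and 8.73, 8.67, 8.77 and 9.29 in RIL39. All arrays of RIL71 were thus at the floor, while RIL99, RIL54 and RIL118 averaged 8.99, 8.87 and 9.02, as high as RIL39. The difference between the sister lines was -6.61 (SE 0.15, adjusted p = 2.55e-12).

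The ribosomal protein gene rpl30 on chromosome 8 read 2.12, 2.11, 2.17 and 2.12 in RIL71 and 7.77, 7.75, 8.68 and 8.27 in RIL39, a difference of -5.98 (SE 0.11, adjusted p = 5.69e-13). Of the other lines RIL99 was bright, at 8.38, and RIL54 and RIL118 were at the floor, at 2.13 and 2.11. RIL39 and RIL99, which belong to different QTL classes, were thus the bright lines. Arrays at the floor, which vary little, enter the SE and adjusted p of rpl30, as they do for LOC541679 and AGPLS3 below. For maf1 on chromosome 9 the values were 3.22, 3.24, 3.28 and 2.34 in RIL71 and 8.17, 8.22, 7.99 and 8.16 in RIL39 (difference -5.12, SE 0.22, adjusted p = 2.81e-09). RIL99 shared the low level of RIL71, at 3.05, and RIL54 and RIL118 both averaged 7.81.

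The histone gene his1 on chromosome 5 was low in RIL71 in 1 of its tested probe sets only. That probe set read 3.53, 3.53, 3.62 and 3.55 in RIL71 and 8.86, 8.77, 8.30 and 8.30 in RIL39 (difference -5.0004, SE 0.12, adjusted p = 7.83e-12). The other 2 tested probe sets of the gene differed by -0.68 (SE 0.31, adjusted p = 0.147) and 0.84 (SE 0.61, adjusted p = 0.369). All 3 are of a kind whose probes may also match other sequences.

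On in RIL71 and off in RIL39 was piip1 on chromosome 9, in 2 probe sets. The probe set of smaller p read 11.92, 9.59, 9.81 and 7.60 in RIL71 and 3.53, 3.46, 1.99 and 2.20 in RIL39, a difference of 6.93 (SE 1.06, adjusted p = 0.000683). Its probes, like those of his1, may match other sequences too. The other of the pair differed by 7.39 (SE 1.19, adjusted p = 0.000996). RIL71 varied more between its own arrays here than for any on-and-off gene above, with an SD of 1.77 over 4 arrays. In the probe set of smaller p, RIL99 read 10.51 and 10.59 at tassel but 2.44 and 2.98 at silking. RIL54 read 8.91 and 10.96 at tassel and 2.24 and 6.09 at silking, and RIL118 6.81 and 2.13, then 3.94 and 1.98. Within these lines the level thus changed between stages or between arrays of the same stage. Another tested probe set of piip1 differed by 3.59 (SE 0.86, adjusted p = 0.0132), and the last, bright in both lines with means of 9.23 and 9.50, by -0.28 (SE 0.14, adjusted p = 0.194).

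The 2 widest fitted differences in each direction belonged to probe sets with no listed gene. Each sets a bright line against one at the floor, which differs from probe set to probe set, so their sizes and order are not exact. One averaged 10.98 ± 0.19 (SD, n = 4) in RIL71 and 1.99 ± 0.01 (SD, n = 4) in RIL39, and was off in the other 3 lines as well (difference 8.99, or 6.98 with values below 4 set to 4). Another had the same pattern, with 10.72 against 1.99 (6.72 with that floor). In the other direction, one was bright in RIL39 alone, at 11.61 against 2.85, with RIL99, RIL54 and RIL118 between 2.57 and 2.62 (-7.61 with that floor). The last was off in RIL71 alone, at 2.30 against 10.70, with the other 3 lines between 10.91 and 11.17 (-6.70 with that floor).

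Beyond these on-and-off genes, the 12 largest named differences in each direction, chosen among called genes whose lines did not overlap at either stage, spanned several functions. Such separation was frequent: 28.9% of all tested probe sets had lines that did not overlap at either stage, in the same direction. Among regulators, the MADS-box gene m24 (zmm24) on chromosome 1 read 8.84, 9.41, 8.92 and 9.04 in RIL71 and 4.78, 4.18, 5.96 and 6.01 in RIL39, a difference of 3.82 (SE 0.45, adjusted p = 7.34e-05). RIL99, at 9.30, resembled RIL71 in level, and RIL54, at 4.81, resembled RIL39. The retinoblastoma-related gene rrb2 on chromosome 4, of a family that restrains entry into DNA replication, read 5.77, 5.88, 6.85 and 7.06 in RIL71 and 3.37, 3.67, 4.90 and 5.17 in RIL39 (difference 2.11, SE 0.18, adjusted p = 4.58e-06). It was the only call among 8 tested genes of the cell cycle and DNA replication.

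LOC541679 on chromosome 2 was above the floor in RIL71 alone. It read 6.90, 6.26, 3.83 and 4.82 in RIL71 and 2.10, 2.10, 2.10 and 2.12 in RIL39, and RIL99, RIL54 and RIL118 averaged 2.10, 2.10 and 2.25. The difference was 3.35 (SE 0.21, adjusted p = 1.31e-07), with 4.48 at tassel and 2.21 at silking. LOC541679 passed the filter on low values only through RIL71, so that p is no separate support. RIL39 was at the floor, and with values below 4 set to 4 the difference was 1.496 (adjusted p = 3.63e-05) and that at tassel 2.58. ERF1 on chromosome 8 read 10.89, 10.29, 9.77 and 9.08 in RIL71 and 7.46, 7.70, 6.41 and 6.54 in RIL39 (difference 2.98, SE 0.47, adjusted p = 0.000813). GT1 on chromosome 1 was higher in RIL71 by 3.09 (SE 0.35, adjusted p = 4.75e-05), with 6.19 to 7.73 in its 4 arrays against 2.46 to 5.18 in RIL39.

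**Figure D3:**
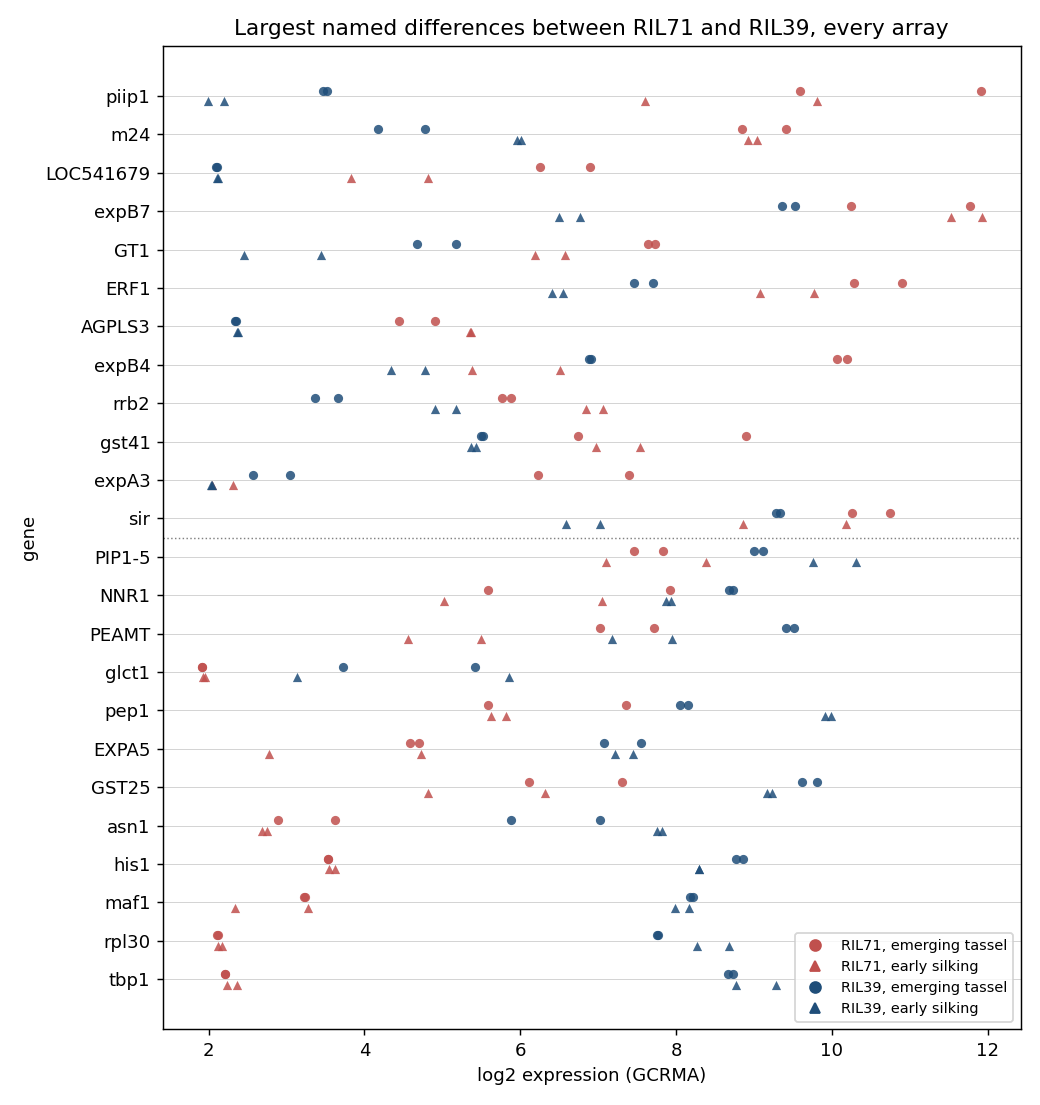
Log2 expression (x axis) in each of the 8 arrays for the 12 largest named differences in each direction (y axis; dotted line between directions; higher in RIL71 above it). Red marks RIL71 and blue RIL39, circles emerging tassel and triangles early silking; within a stage the red and blue marks of a gene do not overlap, and tbp1, rpl30, maf1 and his1 sit near the floor in all 4 RIL71 arrays.

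Nitrogen assimilation had 3 calls among its 8 genes, 1 higher in RIL71 and 2 lower, with a median of -0.35. The asparagine synthetase gene asn1 on chromosome 9, which makes the main nitrogen transport amide, read 3.63, 2.89, 2.75 and 2.68 in RIL71 and 7.03, 5.88, 7.75 and 7.82 in RIL39. RIL39 was the only line with a level well above the floor, since RIL99, RIL54 and RIL118 averaged 2.72, 2.96 and 2.72. The difference was -4.13 (SE 0.28, adjusted p = 3.33e-07). This probe set passed the filter on low values only through RIL39, so that p is no separate support. Another probe set of asn1, near the floor in RIL39, differed by 0.76 (SE 0.68, adjusted p = 0.471).

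Glutamine synthetase, which joins ammonium to glutamate, differed the other way. The gln2 values on chromosome 1 were 9.51, 10.19, 10.24 and 10.34 in RIL71 and 8.56, 8.53, 8.64 and 9.02 in RIL39 (difference 1.38, SE 0.16, adjusted p = 8.25e-05). The nitrate reductase gene NNR1 on chromosome 4 read 5.58, 7.93, 7.06 and 5.03 in RIL71 and 8.74, 8.68, 7.93 and 7.87 in RIL39, so RIL71 was lower but scattered (difference -1.91, SE 0.54, adjusted p = 0.0295). That call was lost without any single array except RIL71 tassel 2 or RIL71 silking 1. It was also lost in the fit of the 8 arrays alone (adjusted p 0.091). The sulfite reductase gene sir on chromosome 6 was higher in RIL71 by 1.96 (SE 0.49, adjusted p = 0.0166) in 1 probe set and by 1.79 in another, and by -0.02 in the brightest one. Its call was lost without RIL71 tassel 1, RIL71 silking 2, RIL39 tassel 2 or RIL39 silking 2 (adjusted p 0.0534 to 0.0739), and without both low-5′ arrays of RIL39 (adjusted p 0.151).

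Starch synthesis had 4 calls among 9 tested genes of 14 listed, 1 higher in RIL71 and 3 lower, with a median of -0.24. AGPLS3 on chromosome 7, a large subunit of ADP-glucose pyrophosphorylase, the first committed enzyme of starch synthesis, read 4.45, 4.91, 5.37 and 5.35 in RIL71 and 2.34, 2.36, 2.36 and 2.37 in RIL39. Its signal was thus above the floor in RIL71 alone, with RIL99, RIL54 and RIL118 at 2.34, 2.73 and 2.30 (difference 2.66, SE 0.22, adjusted p = 2.14e-06). AGPLS3 passed the filter on low values only through RIL71, so that p is no separate support. Against a line at the floor the size of a difference depends on the floor, and with values below 4 set to 4 it was 1.02 (adjusted p = 8.31e-06). GLG1 on chromosome 1 was lower in RIL71, with 9.94 to 10.79 against 11.31 to 11.998 (difference -1.22, SE 0.22, adjusted p = 0.00229). AGP2 on chromosome 6 differed by -1.02 (SE 0.25, adjusted p = 0.0136), and bt2 on chromosome 4, a small subunit of the same enzyme in the kernel, by -0.74 (SE 0.18, adjusted p = 0.0154).

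Leaving out RIL71 silking 1 ended the AGP2 call (adjusted p 0.0564). Leaving out RIL71 tassel 1, RIL71 silking 2, RIL39 tassel 2 or RIL39 silking 2 ended that of bt2 (adjusted p 0.0524 to 0.0716), as did leaving out both low-5′ arrays of RIL39 (adjusted p 0.173). Sucrose and hexose metabolism had 0 calls in limma among 8 tested genes, 1 of them with an unadjusted p under 0.05, and a median of 0.10. The glucose transporter gene glct1 on chromosome 8 was called lower in RIL71 in 1 dim probe set (difference -2.61, SE 0.49, adjusted p = 0.00312), at 1.92 to 1.96 in RIL71 and 3.13 to 5.86 in RIL39. With values below 4 set to 4 the difference was -0.82 (adjusted p 0.122). A bright probe set of glct1 in both lines differed by 0.08 (SE 0.11, adjusted p = 0.633).

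Glutathione transferases, enzymes that conjugate toxic compounds to glutathione, had 3 calls among 16 tested genes of 31 listed, a share near the 17.8% of all named genes. The gene gst41 on chromosome 6 read 6.75, 8.89, 6.97 and 7.54 in RIL71 and 5.50, 5.52, 5.37 and 5.43 in RIL39 (difference 2.08, SE 0.35, adjusted p = 0.00152). RIL39 was the low line, as RIL99, RIL54 and RIL118 averaged 7.36, 8.28 and 7.90. GST25 on chromosome 9 read 7.31, 6.12, 6.32 and 4.82 in RIL71 and 9.61, 9.81, 9.23 and 9.16 in RIL39 (difference -3.31, SE 0.49, adjusted p = 0.000513). For gst2 on chromosome 10 the difference was -1.10 (SE 0.27, adjusted p = 0.0139), and its call was lost without RIL39 tassel 2 or RIL39 silking 2 (adjusted p 0.0574 and 0.0592) or without both (adjusted p 0.166).

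Benzoxazinoids are defense compounds of grasses that start from indole. Of 4 tested genes of the pathway 1 was called. This was bx6, a dioxygenase of the later steps, which read 10.34, 10.33, 9.73 and 10.13 in RIL71 and 11.82, 11.80, 11.67 and 10.62 in RIL39 (difference -1.34, SE 0.36, adjusted p = 0.0219). The call was lost without RIL71 tassel 1, RIL71 silking 1, RIL39 tassel 1, RIL39 tassel 2 or RIL39 silking 1 (adjusted p 0.0535 to 0.0719). The other tested probe set of bx6 differed by -1.14 (SE 0.41, adjusted p = 0.0743). The indole-forming bx1, also on chromosome 4, read 9.22, 9.61, 8.82 and 9.64 in RIL71 and 12.08, 11.98, 10.77 and 10.24 in RIL39, without overlap, but its difference of -1.94 (SE 0.74) missed the threshold (adjusted p = 0.0933). It passed in the fit of the 8 arrays alone (adjusted p 0.00357) and with RNA amount as a covariate (adjusted p 0.0275).

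A further indole synthase, igl1, differed by -0.11 (SE 0.12, adjusted p = 0.546). The beta-glucosidase gene glu1, whose enzyme frees the active compounds from their glucosides, read 12.99 and 12.49 in RIL71 against 8.93 and 9.39 in RIL39 at tassel. At silking RIL71 read 9.50 and 6.81 and RIL39 9.71 and 9.04. It was called at tassel (difference 3.58, adjusted p = 0.0301), and the interaction of line and stage was not called for it (adjusted p = 0.154).

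Aquaporins, the water channels of cell membranes, had 3 calls among 22 tested genes of 29 listed, with a median of 0.02. The plasma membrane gene PIP1-5 on chromosome 4 read 7.46, 7.83, 8.39 and 7.10 in RIL71 and 9.00, 9.12, 10.31 and 9.76 in RIL39 (difference -1.85, SE 0.44, adjusted p = 0.0123). The genes pip2e and pip2-5 were higher in RIL71 by 0.71 (SE 0.15, adjusted p = 0.00547) and 1.09 (SE 0.33, adjusted p = 0.0411). PIP1-5 was lost without RIL71 silking 2 (adjusted p 0.0572) and without the 2 low-5′ RIL39 arrays (adjusted p 0.0839). The pip2-5 call was lost without any single array other than RIL71 tassel 2 or RIL71 silking 2 (adjusted p 0.0512 to 0.14), with a replicate block (adjusted p 0.054), without RIL118 (adjusted p 0.061) and with RNA amount as a covariate (adjusted p 0.0744). The pip2e call was lost only without the 2 low-5′ RIL39 arrays together (adjusted p 0.0582).

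Photosynthetic genes were measurable in the stem. The share called was 23.1% for the C4 and Calvin cycle and 7.69% for light harvesting and photosynthesis, against 17.8% of all named genes. Of 13 genes of the C4 and Calvin cycle 3 were called. The C4 phosphoenolpyruvate carboxylase gene pep1 on chromosome 9 read 5.59, 7.36, 5.63 and 5.81 in RIL71 and 8.05, 8.15, 9.91 and 9.99 in RIL39. Its difference of -2.92 (SE 0.93) lay just inside the threshold (adjusted p = 0.0496), and the call was lost without any single array other than RIL71 tassel 2 (adjusted p 0.0849 to 0.14), and with a replicate block (adjusted p 0.0631). The related gene pep4 differed by -0.99 (SE 0.22, adjusted p = 0.00832) and the malic enzyme gene me2 by 0.50 (SE 0.10, adjusted p = 0.00588). Both of these were lost without the 2 low-5′ RIL39 arrays (adjusted p 0.148 and 0.118). Of 13 genes listed by name under light harvesting and photosynthesis 1 was called, the ferredoxin gene fdx3, whose part in photosynthesis was not tested. It read 12.96 to 13.15 in RIL71 against 13.55 to 13.85 in RIL39 (difference -0.65, SE 0.09, adjusted p = 0.000337). Its other tested probe set differed by -0.37 (SE 0.15, adjusted p = 0.122).

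Cytosolic ribosomal protein genes had 4 calls among 19, a share near the 17.8% of all named genes. All 4 were lower in RIL71, and the median of the 19 was -0.18. Besides rpl30 these were arpp2a-3 (-1.29, SE 0.25, adjusted p = 0.00412), rpl29 (-0.84, SE 0.18, adjusted p = 0.00617) and RPS10 (-0.42, SE 0.12, adjusted p = 0.029). The RPS10 call was lost without any single array other than RIL71 tassel 2 (adjusted p 0.0577 to 0.084). Without the 2 low-5′ RIL39 arrays arpp2a-3 was lost as well (adjusted p 0.0751). Of 25 histone and chromatin genes 3 were called. Besides his1 these were nfa104 (1.39, SE 0.31, adjusted p = 0.00816), a nucleosome assembly factor, and sdg110 (0.68, SE 0.20, adjusted p = 0.0329), a SET-domain gene.

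Both of these chromatin calls were fragile, and another tested probe set of nfa104 was not called (0.54, SE 0.24, adjusted p = 0.138). The nfa104 call was lost in the fit of the 8 arrays alone (adjusted p 0.0584) and without the 2 low-5′ RIL39 arrays (adjusted p 0.148). The sdg110 call was lost without any single array other than RIL71 tassel 1 (adjusted p 0.0534 to 0.112), and its other tested probe set differed by -0.26 (SE 0.12, adjusted p = 0.148).

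Of the hormone genes, those of cytokinin and auxin had 0 calls in limma among 18 tested, 4 with an unadjusted p under 0.05, and their differences ran from -0.67 to 1.69. The list of lipoxygenases and jasmonate had 2 calls among 8 tested genes. The reductase gene opr5 on chromosome 2, of the family that makes jasmonate precursors, read 9.87, 9.37, 10.57 and 10.73 in RIL71 and 7.78, 7.60, 8.78 and 8.75 in RIL39. The lines kept the same distance at both stages, 1.93 at tassel and 1.88 at silking, with 1.91 over both (SE 0.22, adjusted p = 7.35e-05). The allene oxide cyclase gene aoc1 was lower in RIL71 by 0.77 (log2 difference -0.77, SE 0.21, adjusted p = 0.0261) in 1 of its 2 tested probe sets. It was lost without RIL71 tassel 1, RIL71 tassel 2, RIL71 silking 2, RIL39 tassel 2 or RIL39 silking 2 (adjusted p 0.0541 to 0.104), and without both low-5′ arrays of RIL39 (adjusted p 0.274).

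Ethylene had 2 calls among 4 genes of the list with alternative oxidase, both higher in RIL71. The ACC oxidase gene acco20 on chromosome 4, whose enzyme forms ethylene, read 9.15, 10.87, 12.47 and 12.58 in RIL71 and 8.32, 8.52, 10.58 and 11.35 in RIL39 (difference 1.57, SE 0.39, adjusted p = 0.0148). The receptor gene etr2 on chromosome 10 was higher by 0.73 (SE 0.19, adjusted p = 0.0196). Both calls were lost without the 2 low-5′ RIL39 arrays (adjusted p 0.0614 and 0.142), and that of etr2 also without RIL71 tassel 1, RIL71 silking 1, RIL39 tassel 1, RIL39 tassel 2 or RIL39 silking 2 (adjusted p 0.0578 to 0.0736).

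Single calls came from several smaller lists. The KNOX homeobox gene lg3 was lower in RIL71 by 0.92 (log2 difference -0.92, SE 0.16, adjusted p = 0.00187) and, with m24, made 2 calls among 15 homeobox and meristem regulators. Among 4 fermentation genes the pyruvate decarboxylase gene pdc2 on chromosome 8 was called. It read 3.22 to 3.98 in RIL71 against 4.48 to 5.96 in RIL39 (difference -1.57, SE 0.28, adjusted p = 0.00197). A dimmer tested probe set of pdc2 differed by -0.09 (SE 0.21, adjusted p = 0.794). PEAMT, the phosphoethanolamine methyltransferase of choline synthesis, read 7.71, 7.03, 5.49 and 4.56 in RIL71 and 9.51, 9.42, 7.18 and 7.95 in RIL39 (difference -2.32, SE 0.28, adjusted p = 0.000102). In both lines it was lower at silking than at tassel.

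The anthocyanin gene a2, a dioxygenase of the last steps of pigment synthesis, was higher in RIL71 by 1.39 (SE 0.31, adjusted p = 0.00796). In the fit of the 8 arrays alone its adjusted p was 0.0513. The fatty acid elongase gene fae1 of cuticle lipids was higher by 1.69 (SE 0.37, adjusted p = 0.00836), and pht1, from the list of iron and nutrient transport, by 1.46 (SE 0.29, adjusted p = 0.00407). All of these were lost without the 2 low-5′ RIL39 arrays (adjusted p 0.1, 0.0799 and 0.0725). The carotenoid gene vp9 on chromosome 7 differed by -0.63 (SE 0.16, adjusted p = 0.0179). Its call was lost in the fit of the 8 arrays alone (adjusted p 0.072). It was also lost without RIL71 tassel 1, RIL71 silking 1, RIL39 tassel 1, RIL39 tassel 2 or RIL39 silking 1.

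Heat shock proteins (7 tested), pathogenesis-related and defense proteins (6), kernel storage (4), kinesins (4) and dehydrins and LEA proteins (2) had 0 calls in limma over both stages. An unadjusted p under 0.05 was reached by 2 heat shock, 1 defense and 1 kernel storage gene, and by 0 of the kinesins and dehydrins. Over all probe sets, 3545 had an unadjusted p under 0.05 against 1834 called.

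The line difference mostly kept its direction between stages, while fewer probe sets were called at both. At emerging tassel 1203 probe sets (10.9%) were called, 609 higher in RIL71 (5.52%) and 594 lower (5.38%), and at early silking 785 (7.12%), 375 higher (3.4%) and 410 lower (3.72%). Of the 1203 tassel calls, 1022 (84.95%) had the same direction at silking, where the arrays are different ones, and of the 785 silking calls 712 (90.7%) had the same direction at tassel. Both stages called 427. The tassel calls had a median size of 1.35, and at silking the median of the same probe sets in the direction of the tassel call was 0.63. Over all 11033 tested probe sets, 68.6% had the same direction, and the differences at both stages had a Pearson r of 0.64 across probe sets, which are not independent replicates and share the filter and the normalization.

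Single arrays moved these counts by more than 1.5 times. The tassel count was 590 without RIL39 tassel 1 and 459 without RIL39 tassel 2. The silking count was 505 without RIL71 silking 1, 407 without RIL71 silking 2 and 377 without RIL39 silking 2. Without both RIL39 arrays of low 5′ signal the counts were 415 at tassel and 309 at silking. At silking alone the rule added cks on chromosome 8, the CMP-KDO synthetase gene, which supplies a rare sugar of pectin. It read 11.51 and 11.56 in RIL71 and 10.004 and 9.99 in RIL39 (difference 1.54, adjusted p = 2.6e-05), and was also higher in RIL71 at tassel, with 11.61 and 11.31 against 10.65 and 10.51.

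**Figure D4:**
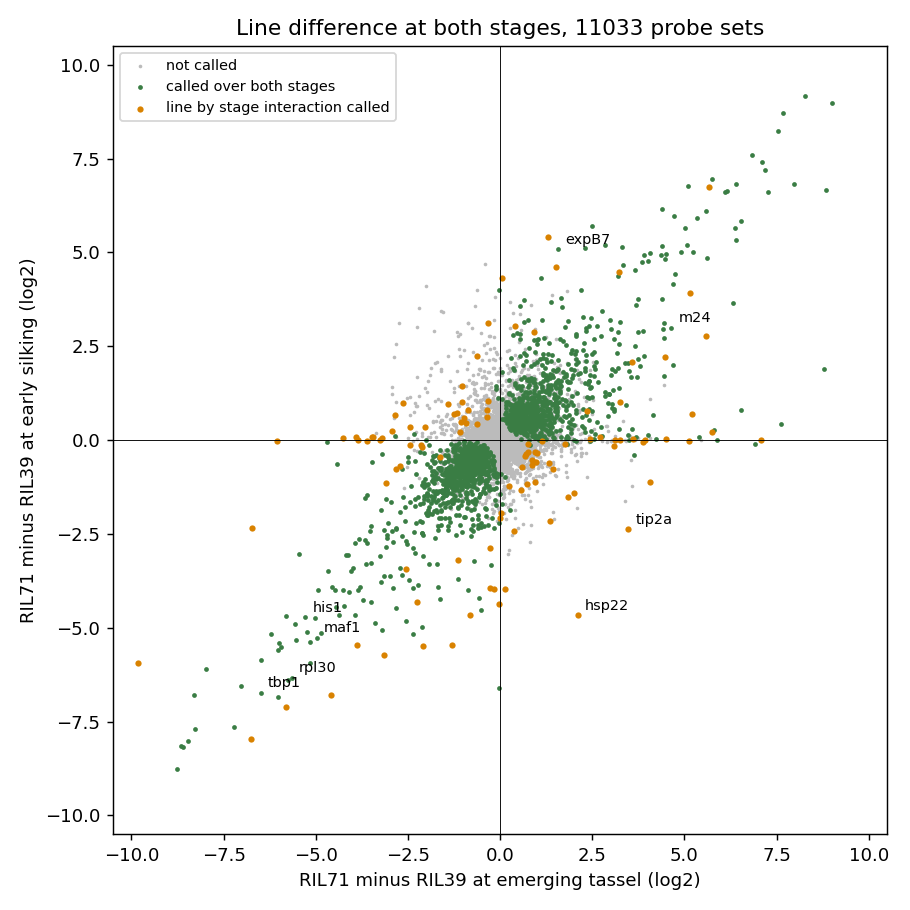
Difference between RIL71 and RIL39 at emerging tassel (x axis, log2) against that at early silking (y axis, log2) for 11033 tested probe sets. Green points were called over both stages, orange points for the interaction of line and stage, and grey points for neither; most of the widest differences lie near the diagonal, while tip2a and hsp22 change sign between stages.

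A difference that itself differed between stages was called for 108 probe sets (0.979%), 46 with RIL71 relatively higher at silking (0.417%) and 62 with it relatively lower (0.562%), and 42 of these interactions were at least 8-fold. The count was 32 without the 2 low-5′ RIL39 arrays. It was 58 without RIL39 tassel 1, 56 without RIL39 tassel 2, 56 without RIL39 silking 1 and 62 without RIL39 silking 2. A stricter filter on low values, above 6 in 4 of 20 arrays, left 58 interactions called. The named gene with the smallest p was tip2a on chromosome 4, a water channel of the vacuole membrane. It read 12.25 and 12.04 at tassel and 9.44 and 8.22 at silking in RIL71, and 8.52 and 8.80 at tassel and 11.51 and 10.90 at silking in RIL39. The lines thus exchanged places: RIL71 was higher by 3.48 at tassel (adjusted p = 0.000162) and differed by -2.37 at silking (adjusted p = 0.004), an interaction of -5.86 (adjusted p = 0.000284).

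The small heat shock protein gene hsp22, also on chromosome 4, read 8.03 and 10.31 at tassel and 3.44 and 3.43 at silking in RIL71. In RIL39 it stayed between 7.05 and 8.24. The interaction was -6.76 (adjusted p = 0.00202), and it was lost without the 2 low-5′ RIL39 arrays (adjusted p 0.0661). For LOC541679 the interaction was -2.27 (adjusted p = 0.0197), but RIL39 was at the floor at both stages, where no change can be read. It was lost without RIL71 tassel 1 or any single RIL39 array (adjusted p 0.0587 to 0.0955) and in the fit of the 8 arrays alone (adjusted p 0.114). A trended robust fit (adjusted p 0.0729) and leaving out the 2 low-5′ RIL39 arrays (adjusted p 0.285) ended it as well.

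Several probe sets for the same gene often differed in their call. Of 107 genes with several tested probe sets, 29 had at least 1 called. In 4 of these 29 all tested probe sets were called in the same direction, as for IPP, whose 3 probe sets were higher in RIL71 by 1.06 to 1.29. In 23 only some were called, and in 2, LOC542358 and por1, probe sets were called in both directions. For por1 the differences were -1.41 and 0.86.

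Calls lay on all 10 chromosomes. Of 779 genes with a chromosome and a place in the gene order, 140 (18.0%) were called. The share ran from 13.2% on chromosome 3 (9 of 68) to 25.4% on chromosome 9 (15 of 59), and 11 of the 15 on chromosome 9 were lower in RIL71. On chromosome 6, which holds the bin that the lines share, 11 of 72 genes were called (15.3%). Taken in gene order, 2 of the first 24 genes of chromosome 6 were called, 5 of the next 24 (gst41 and me2 among them) and 4 of the last 24 (EXPA5, sir, qsox1 and AGP2). The bin itself was not placed on the assembly here.

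**Figure D5:**
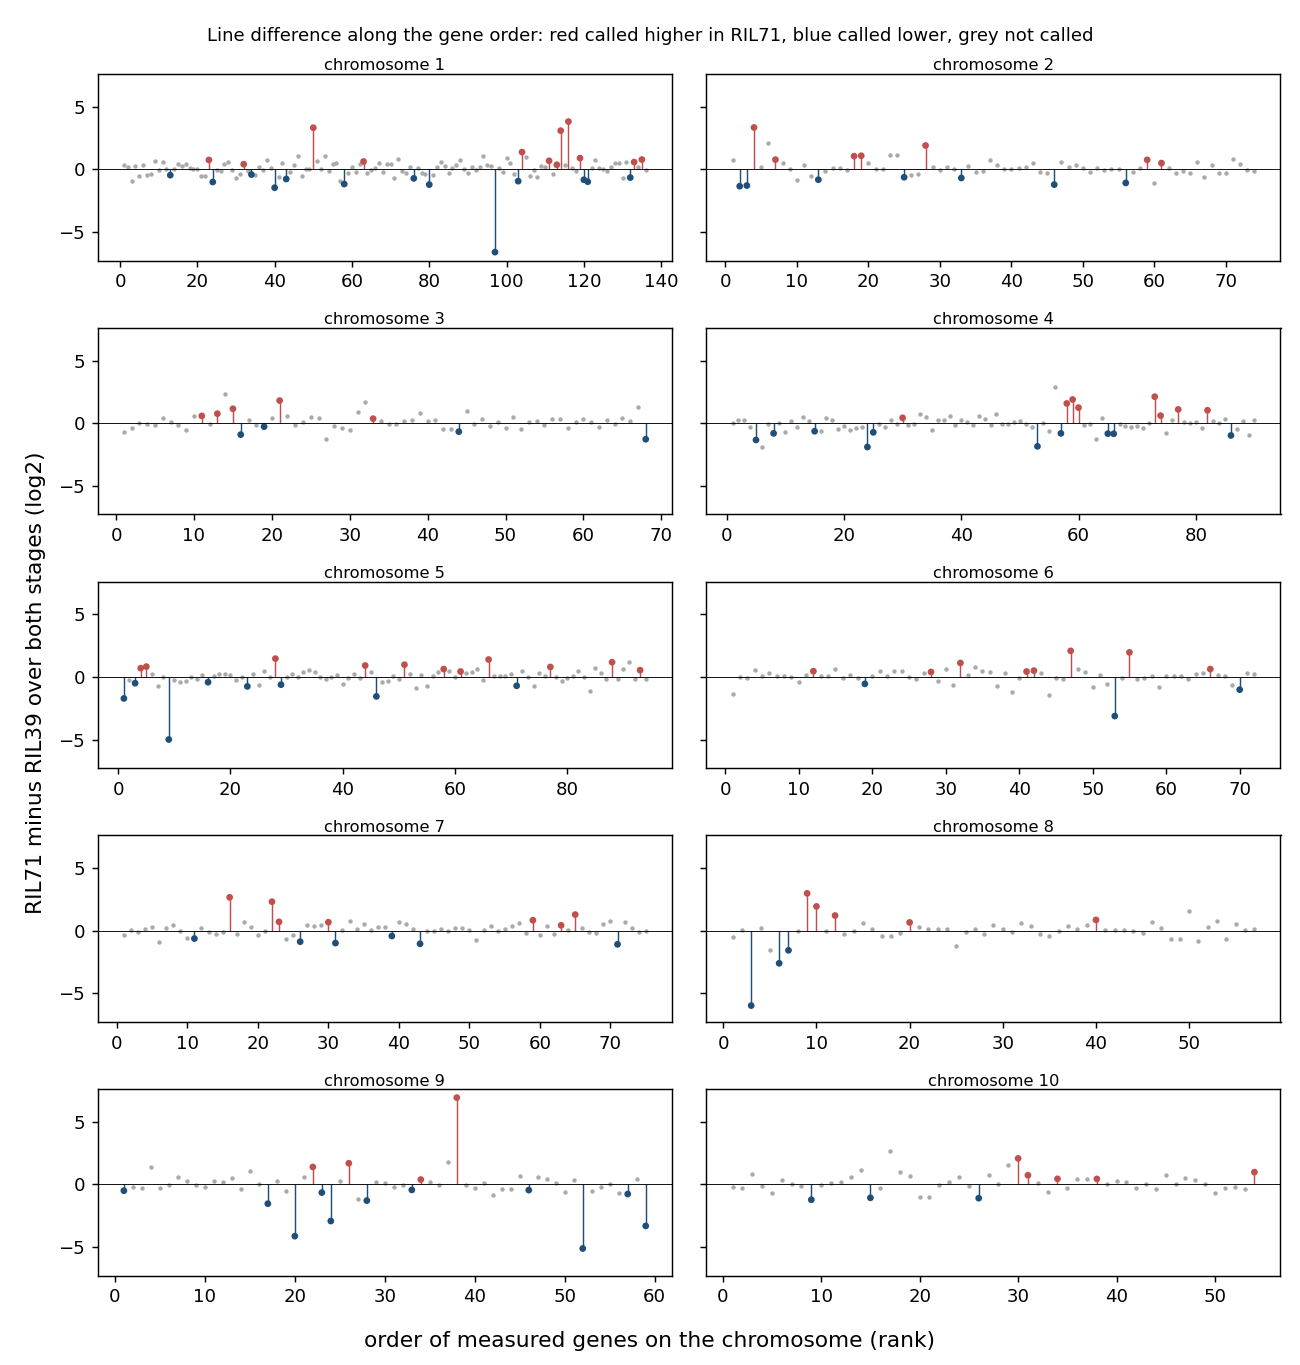
Difference between RIL71 and RIL39 over both stages (y axis, log2) for 779 genes by their rank in the order along each of the 10 chromosomes (x axis). Red points were called higher in RIL71, blue lower, grey not called; called genes are scattered over all chromosomes, with 15 of 59 on chromosome 9.

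Called neighbours in the gene order often differed in direction. Runs of at least 3 called genes in a row occurred 5 times, on chromosomes 1, 2, 4, 5 and 9. The run of 4 on chromosome 4 joined lkrsdh1 (-0.82), acco20 (1.57), HIT2 (1.89) and NIR (1.24). On chromosome 2 VTE5 (-1.34), arpp2a-3 (-1.29) and LOC541679 (3.35) followed each other, and on chromosome 9 a2 (1.39), spds2 (-0.65) and pep1 (-2.92). Only genes with a listed probe set that passed the filter entered this order, so genes between them were not seen.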

How the data were processed

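The values are log2 expression per probe set, deposited by the authors and made with GCRMA per the submitters' processing notes, with the version not given in the sources used here. GCRMA subtracts background, puts the arrays on 1 scale and gives a single value per probe set, and it leaves undetected probe sets at a floor that differs between probe sets. They ran from 1.37 to 15.2 over 17734 probe sets, of which 179 controls were left out. Tested were those with a log2 value over 5 in 2 or more arrays, which kept 11033 and set aside 6522.

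All 20 arrays were fitted in limma 3.58.1 (R 4.3.3), giving 1 mean to every one of the 10 groups of line and stage, 10 residual and 2.37 prior degrees of freedom, and p-values were adjusted by Benjamini-Hochberg over all tested probe sets. The fit was tested on simulated data. The number of arrays limits the precision. The comparison, gene lists, lines and tests were chosen with earlier results of these data known. Lists hold genes matched by symbol or synonym, and 1 probe set a gene, that of smallest p, stands for it. Gene names come from the platform annotation, which lists 1 gene for 1452 maize probe sets.

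Named genes were the 12 largest called differences each way that did not overlap at either stage, the 3 called genes of smallest p each way at each stage and for the interaction, all on-and-off genes, up to 4 called members of each list, every measured lignin, secondary-wall cellulose and benzoxazinoid gene, and the 2 widest unnamed probe sets each way. IPP, por1, LOC542358, and the genes of chromosome 6 and of the runs were named after their values were seen. The differences of replicate 2 minus replicate 1 correlated at 0.243 between the stages of RIL71 and 0.512 between those of RIL39, but at -0.244 to -0.0799 between the lines, so the numbers were not taken to pair the lines and no block was fitted in the main analysis.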

Additional observations from a re-analysis of the deposited data

Results flagged for a closer look

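The difference between RIL71 and RIL39 was itself different at emerging tassel and at early silking for 108 probe sets, by the interaction of line and stage in the limma fit. Among named genes the interactions were -6.76 for hsp22, -5.86 for tip2a and -2.27 for LOC541679 on the log2 scale, where a negative value means that RIL71 was lower relative to RIL39 at silking than at tassel. Groups of 2 arrays were too small to look for single outlying arrays.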

How the results depend on the processing

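Of 74 named calls, 38 held under every alternative, 36 were lost under at least 1 and none changed direction; 33 were lost without RIL39 tassel 2 and silking 2, lowest in 5′ signal (chosen after seeing the data) and 19 with the 5′ minus 3′ signal as a covariate. Without those 2 arrays the counts were 682 over both stages, 415 at tassel, 309 at silking and 32 for the interaction, against 1834, 1203, 785 and 108, and the covariate left 1048 over both stages. Leaving out each array in turn gave 1030 to 1896 calls over both stages, 459 to 1151 at tassel, 377 to 840 at silking and 56 to 156 for the interaction. A filter of above 6 in 4 of 20 arrays left 58 interactions. Counting on above 7 and off below 3 gave 38 probe sets, against 60. The causes of these changes were not tested. With a replicate block the counts were 1673, 1123, 721 and 106, and with the RIL39 numbers crossed 1888, 1219, 771 and 111. The block lost 3 named calls, and the fit of the 8 arrays alone lost 9. Uncalled genes turned sign: with the covariate cesa10 was -0.000665 and CesA12 -0.16, and leaving out single arrays gave -0.0887 to 0.34 for CesA12, -0.14 to 1.01 for ccr2 and -0.0197 to 0.0031 for pal3. All other counts, from the 8 arrays alone, without RIL118, RNA amount, quantile normalization, median centring, no filter, a filter on the 8 arrays, a floor of 4 and a trended robust fit, stayed within 1.5 times.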
